A study of Mus musculus with 17 samples.

Results

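The genes of Wnt signalling that act outside the cell or at its surface were followed in the colon of mice used as a model of Gulf War illness (GWI). Members were taken by gene symbol: the Wnt ligands, the Frizzled receptors, the co-receptors Lrp5 and Lrp6, the R-spondins, the secreted Frizzled-related proteins, Wif1, the Dickkopf proteins, and Porcn and Wls, which process and export the ligands. This rule gave 46 of the 23719 entries of the count table. They comprise 19 ligands, 2 processing genes, 10 Frizzled receptors, 2 co-receptors, 4 R-spondins, 5 inhibitors that bind Wnt and 4 Dickkopf genes.

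As background, Wnt ligands receive a lipid from the enzyme Porcn, are carried to the cell surface by Wls, and bind a Frizzled receptor together with Lrp5 or Lrp6, which keeps beta-catenin from being degraded. R-spondins strengthen the signal by removing ubiquitin ligases that would otherwise take Frizzled receptors off the surface, whereas secreted Frizzled-related proteins and Wif1 hold ligands outside the cell. In the intestine, ligands and R-spondins made by stromal cells around the crypt base maintain the epithelial stem cells.

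The 17 colon samples sequenced came from C57BL/6 mice, all male and 32 to 34 weeks old. Each sample was taken as a separate mouse, which the sources used here do not state for these samples. For 7 days the mice of the 8 GWI samples drank water that held 2 mg/kg of pyridostigmine bromide (PB), which reversibly blocks acetylcholinesterase. A recovery of 21 days followed, and the colons were collected on day 30. The mice of the 9 Control samples drank water without PB. The dose rests on an estimated water intake and was not measured for each mouse, and the comparison asks which levels differed weeks after the exposure had ended.

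Each sample held between 16293537 and 20741212 counts. Levels are given as CPM, the counts of a gene per 1e6 counts of a sample after scaling by the trimmed mean of M-values (TMM). Levels of different members are compared as CPM per kilobase of exon (CPM per kb). The marker that leads a list, or is its most abundant, is the one with the highest mean CPM, without regard to length. A count of 3, taken as the limit that a count of 0 allows, corresponded to 0.145 to 0.184 per 1e6 counts before TMM scaling. Reads carry no molecular identifiers, so this limit covers counting error only.

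The tissue label was checked against marker genes. The 12 colon epithelium markers, led by Car1 at a mean of 12236 CPM, and the 10 smooth muscle markers, led by Myh11 at 2217 CPM, had counts in every sample. Several samples stood apart. Control samples 6 and 7 held ileal and Paneth cell transcripts: Fabp6 was at 119 and 314 CPM there and between 1.64 and 6.90 CPM in the other Control samples, and the Paneth cell defensin Defa24 was at 60.4 and 120.0 CPM against at most 0.623 CPM. Control sample 1 and GWI sample 5 held a different set of Hox genes, which mark position along the gut. Hoxa13 was at 71.0 CPM in Control sample 1, where the other Control samples reached at most 5.78 CPM, and at 75.3 CPM in GWI sample 5, where the other GWI samples reached at most 16.1 CPM. Medians also lay apart without these samples: Hoxd10 was at 13.4 CPM in the other Control and 5.83 CPM in the other GWI samples. Over 7 tested posterior Hox genes the median log2 fold change of GWI against Control was -1.04, with 6 below 0. In edgeR's quasi-likelihood test 0 of the 7 had an adjusted p under 0.05 and 3 an unadjusted p under 0.05. The part of position in the levels of members was not tested. In Control sample 9 the 10 most abundant genes took 23.1% of all counts, the highest share of any sample. Sample names also share a first part whose meaning is not given: 5 of 10 such parts cover more than 1 sample, and the correlation estimated within them was 0.621. Every such part lies wholly within the Control or the GWI samples. The main test treats the 17 samples as independent, so its p-values do not measure the spread between parts.

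Of the 46 members, 31 passed the filter on low counts and 15 did not. In edgeR's quasi-likelihood test, after Benjamini-Hochberg adjustment over all 14146 tested genes, 5 of the 31 were called at an adjusted p under 0.05, 16.1% of the tested members, where 26.8% of all tested genes were called. With the correlation of 0.621 within the shared name parts modelled in limma-voom, 0 members and 3.32% of all genes were called, with 6 members at an unadjusted p under 0.05. In the edgeR test, those higher in GWI were 3, the co-receptors Lrp5 and Lrp6 and the receptor Fzd5, or 9.68% beside 13.4% of all genes. Those lower in GWI were 2, the R-spondin gene Rspo3 and the ligand-processing gene Porcn, or 6.45% beside 13.5% of all genes. Both co-receptors were thus higher while 1 of the 3 tested R-spondins was lower. With upper-quartile in place of TMM scaling, Fzd5 left the calls and Dkk3, Fzd2 and Wnt4 entered them as lower, and the split over all genes moved from 1889 higher and 1903 lower to 1214 higher and 2992 lower (49.8% and 28.9% of calls higher). In bulk tissue, fewer cells of a type and less RNA per cell cannot be told apart. The share of called members lay below that of all genes, so the members as a group did not stand out by their number of calls. Complete separation of the groups occurred for 0 members in either direction, where 1.83% of all tested genes had every GWI sample above every Control sample and 0.523% had every GWI sample below. The threshold of the study's methods, an unadjusted p under 0.05 and a log2 fold change beyond 1 in either direction, was applied here to the edgeR fit and held for 1 member, Rspo3, and for 2.42% of all tested genes.

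Other fits moved this count. The Wald test of DESeq2 called 8 members and 28.1% of all genes, the additions being Dkk3 and Fzd2, lower, and Fzd4, higher. Without Control sample 9, 10 members and 31.9% of genes were called, and without GWI sample 5, 9 members and 27.5%. With Control sample 1 and GWI sample 5 both left out, a choice made after the data were seen, the counts were 8 members and 34.9% of genes. Dkk3 and Fzd2 were among the added members in each of these last 3 fits.

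**Figure D1:**
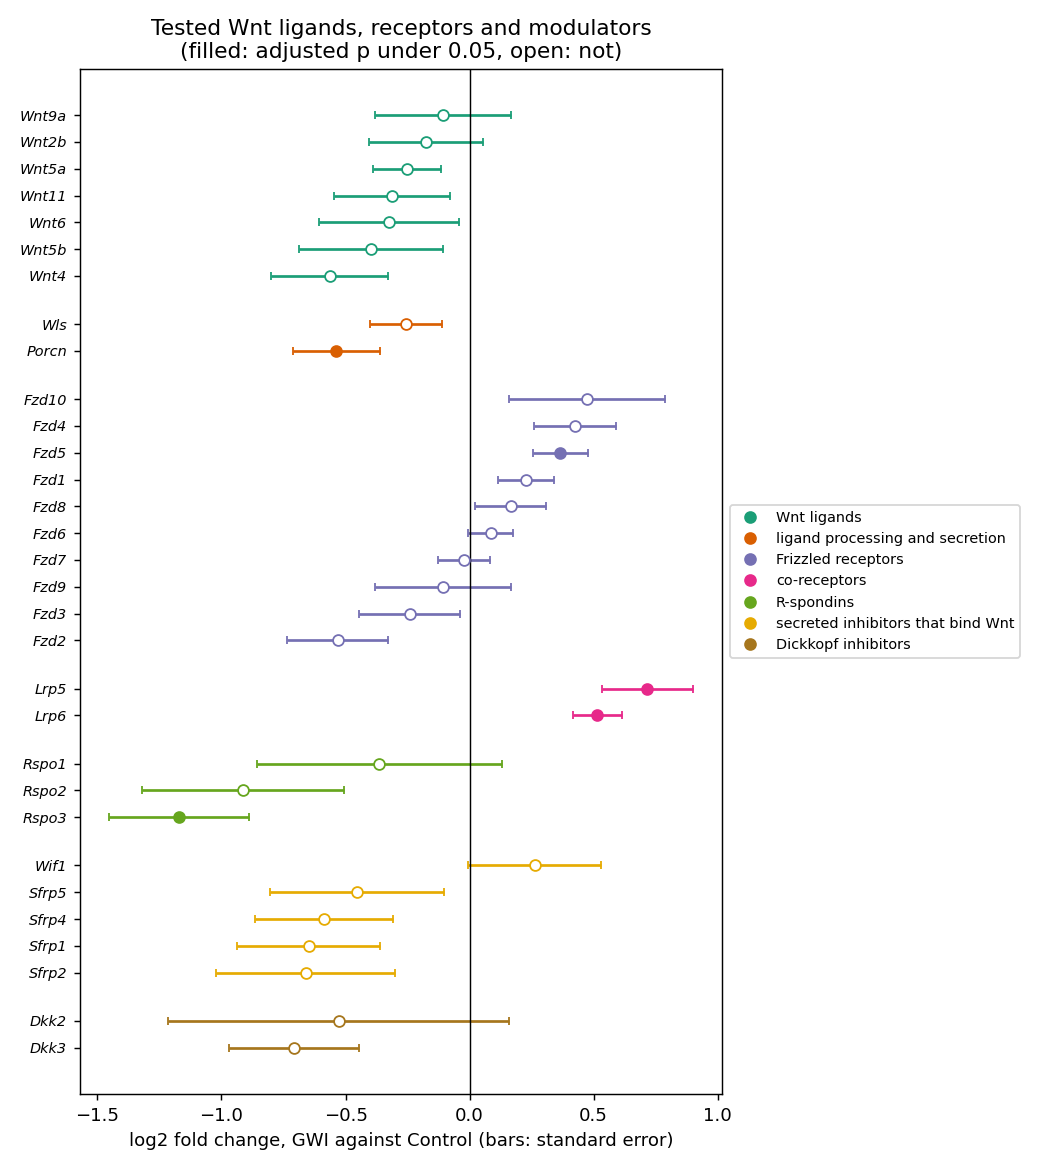
Log2 fold change of GWI against Control for the 31 tested members, ordered by role, with bars of 1 standard error; filled points mark an adjusted p under 0.05 in edgeR's quasi-likelihood test. Both co-receptors lie to the right of 0, the 3 tested R-spondins and the 7 tested ligands to the left, and the Frizzled receptors on both sides. With the smooth muscle covariate the estimates for Rspo1, Wnt2b, Wnt5b, Wnt6, Wnt9a, Fzd7, Sfrp1, Sfrp2, Wif1, Dkk2 and Dkk3 change sign, that for Fzd6 does so with upper-quartile scaling, and those for Fzd3, Fzd8 and Fzd9 do so in other fits.

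Among the ligands, 7 of 19 passed the filter: Wnt5a, Wnt11, Wnt5b, Wnt2b, Wnt6, Wnt4 and Wnt9a. Their fold changes were all below 0, from -0.56 for Wnt4 to -0.11 for Wnt9a on the log2 scale, but with the smooth muscle covariate Wnt2b, Wnt5b, Wnt6 and Wnt9a were above 0, and Wnt9a was so in 4 more fits. The median was -0.31 beside -0.06 for all tested genes. EdgeR's quasi-likelihood test called 0 of them, with 1 of them, Wnt4, at an unadjusted p under 0.05. DESeq2 also called 0, limma-voom with the name-part correlation 0, and limma-voom with sample quality weights 4, in a fit that called 57.2% of all genes.

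Wnt5a, a ligand best known for signalling without beta-catenin, was the most abundant ligand per length at a mean of 2.87 CPM per kb. It made up a median of 41.9% of the summed CPM per kb of all ligands in Control samples and 44.8% in GWI samples. Its level in Control samples ran from 15.2 to 33.9 CPM with a median of 25.3 CPM, and in GWI samples from 14.1 to 24.6 CPM with a median of 20.6 CPM. The highest 5 values were all from Control samples, led by Control 6, and the lowest Control and GWI values were in the samples with high Hoxa13. The difference of -0.25 (SE 0.14) on the log2 scale had an adjusted p of 0.174 by edgeR's quasi-likelihood test. Part of its exons, 4.58%, overlaps the gene Gm2670 on the opposite strand.

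The remaining tested ligands were scarce, Wnt11 being the next per length at 0.901 CPM per kb. Wnt4, a ligand with roles in epithelial and stromal development, had a median of 2.13 CPM in Control and 1.53 CPM in GWI samples. Its log2 fold change of -0.56 (SE 0.24) had an adjusted p of 0.0806 by edgeR's quasi-likelihood test. Without Control sample 1 or Control sample 9 the adjusted p was 0.0391 and 0.0432, without GWI sample 4 it was 0.148, and with the name-part correlation in limma-voom 0.513.

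A further 12 ligands did not pass the filter: Wnt1, Wnt2, Wnt3, Wnt3a, Wnt7a, Wnt7b, Wnt8a, Wnt8b, Wnt9b, Wnt10a, Wnt10b and Wnt16. Wnt3a had 0 counts in all 17 samples. Among the others the highest count in 1 sample was 15, of Wnt3 in Control sample 7, followed by 9 each of Wnt3 and Wnt10b in Control sample 6. The 12 ligands were not tested.

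Porcn, the acyltransferase that attaches the lipid to Wnt proteins, lies at 8193848 to 8206525 on chromosome X (GRCm38). It ranged from 3.04 to 7.57 CPM with a median of 5.24 CPM in Control samples, and from 2.64 to 4.67 CPM with a median of 3.31 CPM in GWI samples. The groups overlapped: 5 Control samples lay above every GWI sample, and 1 GWI sample lay below every Control sample. The means were 4.92 ± 1.40 CPM in Control (SD, n = 9) and 3.39 ± 0.572 CPM in GWI (SD, n = 8). Porcn was lower in GWI by edgeR's quasi-likelihood test (log2 fold change -0.54, SE 0.18, adjusted p = 0.0310). This call did not hold in 9 of the 17 fits that left out 1 sample, Control 4, 5 or 6 or GWI 1, 2, 3, 4, 6 or 7, where the adjusted p was 0.0506 to 0.0651. It was also lost in 3 of 16 other fits, with an adjusted p of 0.0708 to 0.353 by edgeR or limma-voom.

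Wls, the carrier of lipid-modified ligands, was the more abundant processing gene at 12.5 CPM per kb beside 1.40 CPM per kb for Porcn. Control samples ranged from 88.2 to 198 CPM with a median of 103 CPM, and GWI samples from 87.2 to 120 CPM with a median of 96.8 CPM. Control samples 7, 8 and 9 lay above every GWI sample, and the others overlapped. The log2 fold change was -0.26 (SE 0.14) with an adjusted p of 0.184 by edgeR's quasi-likelihood test, and without Control sample 9 it was -0.13 with an adjusted p of 0.397.

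All 10 Frizzled receptors passed the filter. Per length, Fzd5 led with 27.4 CPM per kb, followed by Fzd1 with 5.30, Fzd7 with 4.61, Fzd2 with 3.53, Fzd8 with 3.29, Fzd6 with 3.01 and Fzd4 with 2.71 CPM per kb, and Fzd3, Fzd9 and Fzd10 were each below 1 CPM per kb. Fzd5 thus made up a median of 51.0% of the summed Frizzled CPM per kb in Control samples and 55.8% in GWI samples. The Frizzled median log2 fold change was 0.13, and 6 estimates were above 0 and 4 below, where Fzd6 changed sign with upper-quartile scaling and Fzd3, Fzd7, Fzd8 and Fzd9 in other fits.

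Fzd5, a receptor of the crypt epithelium that Paneth cell maturation depends on, lies at 64730558 to 64737751 on chromosome 1. In Control samples it ranged from 124.5 to 223 CPM with a median of 156 CPM, and in GWI samples from 192 to 249.5 CPM with a median of 213 CPM. Of the GWI samples, 3 lay above every Control sample, and the other 5 lay above all Control samples but 2 and 9. Means were 166.5 ± 32.8 CPM in Control (SD, n = 9) and 215 ± 20.6 CPM in GWI (SD, n = 8). Fzd5 was higher in GWI by edgeR's quasi-likelihood test (log2 fold change 0.37, SE 0.11, adjusted p = 0.0232). The call was lost in 8 of 16 other fits, where the adjusted p was 0.0638 to 0.248, among them that without Control samples 6 and 7 (0.0755), and without GWI sample 6 the adjusted p was 0.0517. Of its exon length, 17.8% overlaps Gm38058 on the opposite strand, and since the strand setting of the counting was not stated, reads of the pair cannot be told apart there.

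Fzd4, the receptor for Norrin in vessels, ranged from 11.3 to 18.8 CPM in Control and from 13.0 to 36.4 CPM in GWI samples, and 5 of the 8 GWI samples lay above every Control sample. Its log2 fold change of 0.43 (SE 0.16) had an adjusted p of 0.0607 by edgeR's quasi-likelihood test, and 0.0442, 0.0495 and 0.0314 without Control sample 9, GWI sample 5 and GWI sample 6. Without GWI sample 7 the log2 fold change of Fzd4 was 0.27 (adjusted p = 0.148 by edgeR), and with the name-part correlation in limma-voom the adjusted p was 0.357. Fzd2, a receptor of mesenchymal cells, ranged from 7.88 to 26.2 CPM in Control and from 8.03 to 16.2 CPM in GWI samples. Its log2 fold change was -0.53 (SE 0.20) with an adjusted p of 0.0601 by edgeR's quasi-likelihood test, and 0.0429, 0.0193 and 0.0250 without Control sample 8, Control sample 9 and GWI sample 5. Without Control sample 6 the adjusted p of Fzd2 was 0.122, and with the name-part correlation in limma-voom 0.194. For the other 7 receptors the adjusted p in the edgeR test was at least 0.136 (Fzd1, log2 fold change 0.23). Fzd1 was called in 3 of 16 other fits (adjusted p of 0.0138 to 0.0485 by limma-voom or edgeR). Fzd10, at 0.47, was called in 1, with the colon epithelium covariate (1.07, adjusted p = 0.04995 by edgeR), and fell to 0.23 without GWI sample 1. Fzd7 was nearest to equal at 21.1 ± 3.26 CPM in Control (SD, n = 9) and 20.7 ± 2.81 CPM in GWI (SD, n = 8).

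Lrp6, a co-receptor that carries the Wnt signal across the membrane, lies at 134446476 to 134566965 on chromosome 6 and was the more abundant co-receptor at 9.46 CPM per kb. It ranged from 84.2 to 144 CPM with a median of 104 CPM in Control samples, and from 118 to 169 CPM with a median of 158 CPM in GWI samples. All GWI samples but GWI 8 lay above every Control sample, and GWI 8 lay above all Control samples but Control 1. Means were 108 ± 16.8 CPM in Control (SD, n = 9) and 154 ± 16.1 CPM in GWI (SD, n = 8). Lrp6 was higher in GWI by edgeR's quasi-likelihood test (log2 fold change 0.52, SE 0.10, adjusted p = 0.00203).

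Lrp5, the related co-receptor, lies at 3584828 to 3686564 on chromosome 19 and had a mean of 6.51 CPM per kb. Control samples ranged from 16.9 to 63.2 CPM with a median of 53.1 CPM, and GWI samples from 61.6 to 104 CPM with a median of 75.9 CPM. Only Control 3 reached into the GWI range, above GWI samples 5 and 8, and Control 9 lay far below all other samples with 243 counts. Means were 48.7 ± 13.0 CPM in Control (SD, n = 9) and 80.0 ± 15.9 CPM in GWI (SD, n = 8). Lrp5 was higher in GWI by edgeR's quasi-likelihood test (log2 fold change 0.72, SE 0.18, adjusted p = 0.0103), and without Control sample 9 the log2 fold change was 0.62 and the adjusted p 0.00142. Both co-receptors were called in all 17 fits that left out 1 sample and in 15 of 16 other fits. The exception was limma-voom with the name-part correlation, with log2 fold changes of 0.82 for Lrp5 and 0.48 for Lrp6 and an adjusted p of 0.0790 and 0.0593.

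**Figure D2:**
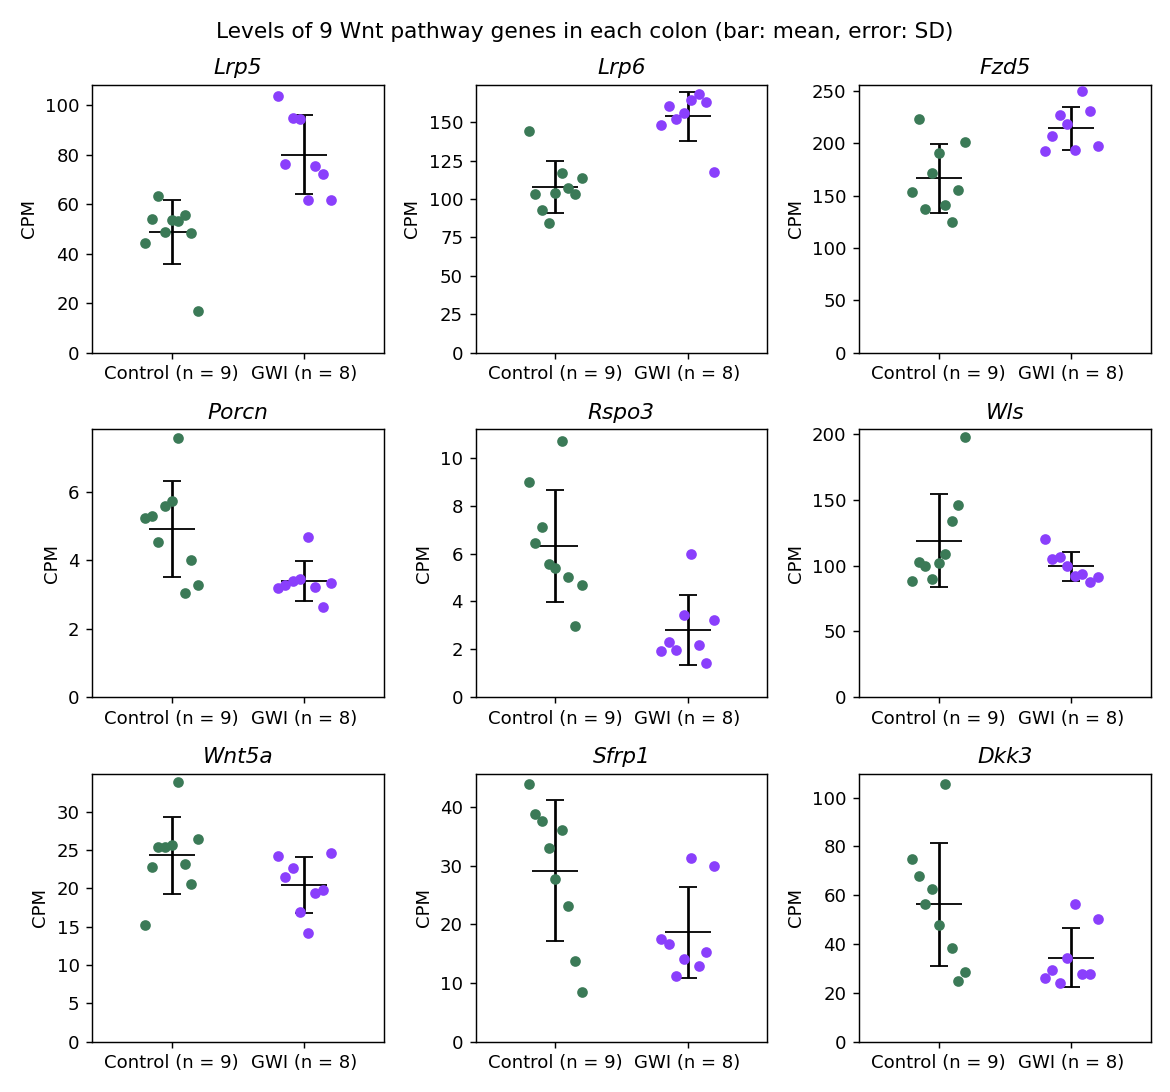
Level in CPM of 9 members in each of 9 Control and 8 GWI colon samples, 1 point per sample, with the mean as a horizontal bar and 1 SD as the error. Lrp6 in GWI lies between 118 and 169 CPM against 84.2 to 144 CPM in Control, and Rspo3 in GWI between 1.41 and 5.99 CPM against 2.96 to 10.7 CPM.

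Of the R-spondins, Rspo1, Rspo2 and Rspo3 passed the filter, and Rspo4 had at most 2 counts in a sample. Rspo3, a stromal R-spondin that sustains crypt stem cells, lies at 29452416 to 29535867 on chromosome 10 and was the most abundant at 1.51 CPM per kb. It ranged from 2.96 to 10.7 CPM with a median of 5.57 CPM in Control samples, and from 1.41 to 5.99 CPM with a median of 2.25 CPM in GWI samples. Of the GWI samples, 5 lay below every Control sample, GWI 5 lay among the middle Control samples, and Control 8 was the lowest of its group. Means were 6.32 ± 2.35 CPM in Control (SD, n = 9) and 2.81 ± 1.45 CPM in GWI (SD, n = 8).

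Rspo3 was lower in GWI by edgeR's quasi-likelihood test (log2 fold change -1.17, SE 0.28, adjusted p = 0.00746), and it was called in all 17 fits that left out 1 sample. Limma-voom with the name-part correlation gave an adjusted p of 0.0693, and the range over the 16 other fits was 4.63e-05 to 0.0693. Its exons overlap Gm48159 on the opposite strand over 13.1% of their length. Rspo2, a related stromal R-spondin, had medians of 1.76 CPM in Control and 0.846 CPM in GWI samples and a log2 fold change of -0.91 (SE 0.41, adjusted p = 0.0989 by edgeR's quasi-likelihood test), with 0.0321 without Control sample 7, 0.190 without Control sample 4 and 0.511 with the name-part correlation in limma-voom. Rspo1 was below 3 CPM in every sample, with an adjusted p of 0.597 by the same edgeR test.

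The inhibitors that bind Wnt ligands, Sfrp1, Sfrp2, Sfrp4, Sfrp5 and Wif1, all passed the filter. EdgeR's quasi-likelihood test called 0 of these 5, with 2 at an unadjusted p under 0.05. DESeq2 called 0, limma-voom with the name-part correlation 0, and limma-voom with sample quality weights, where 57.2% of all genes were called, 3. Their median log2 fold change was -0.59, with the 4 Sfrp genes below 0 and Wif1 above, but with the smooth muscle covariate Sfrp1, Sfrp2 and Wif1 changed sign.

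Sfrp1, a secreted Frizzled-related protein of stromal and muscle cells, was the most abundant of them at 5.54 CPM per kb. Control samples ranged from 8.43 to 43.9 CPM with a median of 33.0 CPM, and GWI samples from 11.3 to 31.3 CPM with a median of 15.97 CPM. GWI samples 5 and 8 lay among the middle Control samples, and the other GWI samples lay below all Control samples but 8 and 9. The log2 fold change was -0.65 (SE 0.29) with an adjusted p of 0.0996 by edgeR's quasi-likelihood test, with 0.0242 without Control sample 9, 0.173 without GWI sample 3 and 0.373 with the name-part correlation in limma-voom. Sfrp4 had an adjusted p of 0.119 by edgeR's quasi-likelihood test with 0.0477 without GWI sample 5, 0.210 without GWI sample 3 and 0.388 with the name-part correlation in limma-voom.

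Of the Dickkopf genes, Dkk2 and Dkk3 passed the filter, while Dkk1 and Dkk4 had at most 2 counts in a sample. EdgeR's quasi-likelihood test called 0 of the 2, with 1 at an unadjusted p under 0.05. DESeq2 called 1, limma-voom with sample quality weights 1 beside 57.2% of all genes, and limma-voom with the name-part correlation 0. Dkk3, a divergent Dickkopf protein of mesenchymal cells that does not act as a standard Lrp5 and Lrp6 antagonist, stood at 13.7 CPM per kb, second among all members to Fzd5.

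Dkk3 ranged from 24.7 to 106 CPM with a median of 56.5 CPM in Control samples, and from 24.1 to 56.6 CPM with a median of 28.5 CPM in GWI samples. The highest value was in Control 6, the highest GWI values were in GWI 5 and GWI 8, and Control 8 and Control 9 were as low as most GWI samples. With a log2 fold change of -0.71 (SE 0.26) its adjusted p was 0.0516 by edgeR's quasi-likelihood test. Leaving out Control sample 7, 8 or 9 or GWI sample 5 or 8 gave an adjusted p of 0.0222 to 0.0452, leaving out Control sample 6 gave 0.106 with a log2 fold change of -0.54, and the name-part correlation in limma-voom gave 0.216. Dkk2, an Lrp-binding antagonist, was below 2 CPM in all samples but Control 1 with 8.15 CPM and GWI 5 with 4.92 CPM.

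Smooth muscle markers moved with the groups. Of the 10 markers, 7 were lower in GWI, with a list median log2 fold change of -0.91 beside -0.06 for all genes. Their summed level ranged from 3690 to 23923 CPM with a median of 11584 CPM in Control samples, and from 3658 to 11832 CPM with a median of 5142 CPM in GWI samples. Control 6 and Control 1 were highest, GWI 5 was the highest GWI sample, and Control 8 and Control 9 were as low as most GWI samples. Rspo3, Sfrp1 and Dkk3 were high or low in much the same samples.

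With the mean log2 CPM of the muscle markers as a covariate, the log2 fold change of Dkk3 was 0.01 and that of Sfrp1 0.12. That of Fzd2 was -0.01 (adjusted p = 0.931 by edgeR), that of Rspo2 -0.20 (adjusted p = 0.751 by edgeR), that of Sfrp4 -0.15 and that of Fzd10 0.10. That of Porcn was -0.17 with an adjusted p of 0.353 by edgeR's quasi-likelihood test. Rspo3 kept a lower level in GWI at a smaller size, -0.62 (SE 0.19, adjusted p = 0.0146 by the same edgeR test). Lrp5 at 0.81 (adjusted p = 0.0121 by edgeR) and Lrp6 at 0.54 (adjusted p = 0.00163 by edgeR) stayed called, and Fzd5 did not (0.29, adjusted p = 0.0839 by edgeR). Wls, lower, and Wnt9a, higher, were called here and in no other fit (-0.49 and 0.60, adjusted p = 0.00204 and 0.0363 by edgeR). This fit called 5 members and 37.6% of all genes.

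**Figure D3:**
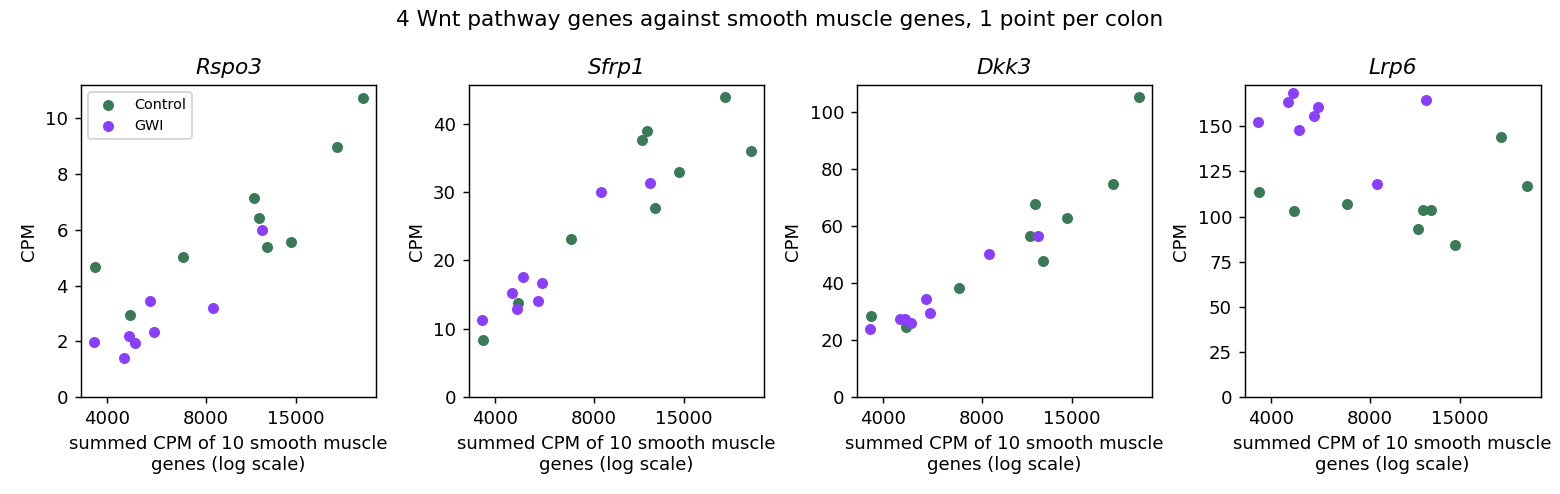
CPM of Rspo3, Sfrp1, Dkk3 and Lrp6 in each colon sample against the summed CPM of 10 smooth muscle genes on a log scale, 1 point per sample, green for Control and purple for GWI. Sfrp1 and Dkk3 of both groups lie along 1 band, while Lrp6 in GWI lies mostly above Control at like muscle levels.

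Markers of other cell types were read against the shares of all tested genes, 13.4% called higher and 13.5% lower. Of the 12 colon epithelium markers, 5 were higher in GWI (list median 0.45), and their summed level had a median of 31718 CPM, from 26352 to 42379 CPM, in Control and of 38597 CPM, from 30389 to 48503 CPM, in GWI samples, with GWI 2 highest. The covariate made from these markers was their mean log2 CPM, which ranks samples differently from the sum. Control 1, with a sum of 27777 CPM, was the highest Control sample at 10.85. GWI 5, with a sum of 31296 CPM, was at 10.85, next to GWI 6 at 10.87. With this covariate, added after the data were seen, Lrp6 was at 0.33 (adjusted p = 0.0297 by edgeR) and Fzd5 at 0.28 (adjusted p = 0.161 by edgeR), while Wnt5a was at -0.01, Wls at -0.05 and Wnt4 at -0.26. Of 20 fibroblast markers, 5 were lower and 0 higher (list median -0.38), with Dpt the most abundant at 136 CPM. Their summed level had a median of 865 CPM, from 489 to 1162 CPM, in Control and of 621 CPM, from 425 to 938 CPM, in GWI samples. This list includes matrix genes such as Col1a1 and Dcn and does not single out the fibroblasts that make R-spondins. Of 7 lymphatic endothelium markers, 3 of the 6 tested were lower (list median -0.90), with Mmrn1 the most abundant at 61.5 CPM and a summed median of 187.5 CPM, from 81.5 to 584 CPM, in Control and of 110.0 CPM, from 77.3 to 201 CPM, in GWI samples. A count of 0 in some sample occurred for 0 of the fibroblast and 1 of the lymphatic markers. Lymphatic vessels are a known source of Rspo3. The part of fibroblast and lymphatic cells in the level of Rspo3 was not tested.

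Of 8 enteric glia markers, 1 was higher and 3 lower (list median -0.86), with a summed median of 288 CPM in Control and 470.5 CPM in GWI samples. Erbb3, at a mean of 297 CPM, made up most of this sum and was the 1 marker called higher (0.91), while 5 of the 8 were below 0. Of 10 enteric neuron markers, 0 were called and 0 had an unadjusted p under 0.05 in the edgeR test, all 10 were below 0 (list median -0.58), and the summed median was 260 CPM in Control and 185 CPM in GWI samples, with Uchl1 the most abundant at 41.2 CPM. Of 15 small intestine markers, 3 of the 9 tested were lower (list median -2.12), with Fabp2 the most abundant at 798 CPM and 5 markers at 0 in some sample, and the summed median was 1310 CPM in Control and 1210 CPM in GWI samples. The lower ones were Fabp6, Lyz1 and Anpep. Control samples 6 and 7 held 119 to 314 CPM of Fabp6 and 189 to 330 CPM of Lyz1, where the other Control medians were 4.96 and 4.32 CPM. Anpep had a median of 5.82 CPM in Control and 5.37 CPM in GWI samples, with a Control maximum of 289 CPM. The part of these cell types in the levels of members was not tested, apart from the fit with the small intestine covariate, also a mean log2 CPM. That fit called 6 members and 16.3% of all genes. Fzd5 (adjusted p = 0.124 by edgeR) and Porcn (adjusted p = 0.0708 by edgeR) lost their calls there, and Fzd1, Fzd4 and Rspo2 entered.

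Shorter genes tended to be lower in GWI over the whole table: the median log2 fold change was -0.18 for genes with up to 2781 exon bases and 0.01 for those with 6844 or more. Lrp6 with 13672 bases and Lrp5 with 9738 bases are in the longest class, and Rspo3 with 3090 bases and Porcn with 3000 bases lie just above the shortest. After the length and base composition trend of each sample was removed, a fit added after the data were seen, the log2 fold changes were 0.51 for Lrp6, 0.59 for Lrp5, -1.05 for Rspo3 and -0.57 for Porcn, and these 4 remained called, while Fzd5 at 0.23 had an adjusted p of 0.248 by edgeR.

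Other parts of the pathway were read from 5 lists, of which 21 of the 70 tested genes were called by edgeR's quasi-likelihood test, 12 higher and 9 lower. Over all tested genes 26.8% were called, 13.4% higher and 13.5% lower, and the count over the lists lies near these shares. The median log2 fold change was 0.03 over the lists and -0.06 over all genes. DESeq2 called 25, beside 28.1% of all genes, and limma-voom with the name-part correlation 0, beside 3.32%. Without GWI sample 3 or GWI sample 6 the edgeR count was 12 and 13, beside 20.3% and 20.1% of all genes. With upper-quartile scaling, 4 genes of the lists were called higher and 13 lower, beside 1214 and 2992 over all genes. With the smooth muscle covariate 15 were called higher and 1 lower, beside 2531 and 2793 over all genes.

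The receptors and ubiquitin ligases that answer to R-spondins (Lgr4, Lgr5, Lgr6, Rnf43 and Znrf3) had 4 of 5 genes tested and 0 called by edgeR's quasi-likelihood test, 1 at an unadjusted p under 0.05, with a median of 0.15. DESeq2 called 0 of them, limma-voom with sample quality weights 3 beside 57.2% of all genes, and limma-voom with the name-part correlation 0. EdgeR called 1 without Control sample 8, Control sample 9 or GWI sample 5, fits that called 26.4%, 31.9% and 27.5% of all genes. Lgr5, an R-spondin receptor and stem cell marker, ranged from 2.53 to 16.2 CPM with a median of 7.44 CPM in Control, and from 3.01 to 15.4 CPM with a median of 5.45 CPM in GWI samples. The groups overlapped (log2 fold change -0.41, SE 0.36, adjusted p = 0.398 by edgeR), and the log2 fold change of Lgr5 was -0.74 without GWI sample 1, -0.27 without Control sample 7 and -0.23 without Control sample 8.

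Of 14 other surface and secreted regulators, 10 were tested, 2 were higher and 3 lower in GWI, with a median of -0.31, beside 13.4% higher and 13.5% lower over all genes. Limma-voom with the name-part correlation called 0 of them. The count of edgeR calls was 2 without GWI sample 3 or 6 and 3 without Control sample 5 or 6 or GWI sample 1 or 4. These fits called 20.1% to 23.6% of all genes. Kremen1 and Kremen2, which bind Dickkopf proteins and take Lrp6 off the surface, were higher, at 24.3 ± 4.75 and 31.3 ± 3.72 CPM for Kremen1 and 7.07 ± 2.08 and 11.3 ± 2.51 CPM for Kremen2 in Control and GWI (SD, n = 9 and 8). Their log2 fold changes were 0.36 (adjusted p = 0.0338 by edgeR) and 0.68 (adjusted p = 0.0120 by edgeR). The glypican Gpc3 (-0.99, adjusted p = 0.0180 by edgeR), and Reck and Adgra2, which act together as a receptor complex for Wnt7 ligands (-0.85 and -0.81, adjusted p = 0.0257 and 0.0449 by edgeR), were lower. Kremen1 lost its call in 7 of the 17 fits that left out 1 sample, Reck in 3 and Adgra2 in 12, with an adjusted p of at most 0.0722, 0.0529 and 0.0911 by edgeR. Of 16 other fits, the call was lost in 7 for Kremen1, 1 for Kremen2, 4 for Gpc3, 5 for Reck and 8 for Adgra2. For Kremen1 these included upper-quartile scaling (adjusted p = 0.104 by edgeR) and the colon epithelium covariate (adjusted p = 0.190 by edgeR). With the smooth muscle covariate all 3 lower calls were lost: Gpc3 was at -0.34 (adjusted p = 0.251 by edgeR), Reck at -0.14 (adjusted p = 0.519 by edgeR) and Adgra2 at 0.00917 (adjusted p = 0.967 by edgeR).

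Among 13 receptors and planar polarity genes that work without beta-catenin, 1 was higher and 3 lower, with a median of -0.32, beside 13.4% higher and 13.5% lower over all genes. Limma-voom with the name-part correlation called 0 of them, and edgeR called 2 without Control sample 6 or GWI sample 3 or 6. The edgeR fits without these samples called 23.4%, 20.3% and 20.1% of all genes. Celsr1, a planar polarity cadherin of epithelia, ranged from 15.7 to 36.0 CPM in Control and from 33.9 to 79.6 CPM in GWI samples. All GWI samples but GWI 5 and GWI 8 lay above every Control sample. Its log2 fold change was 0.99 (SE 0.19, adjusted p = 0.00192 by edgeR's quasi-likelihood test). With the name-part correlation in limma-voom the log2 fold change of Celsr1 was 1.02 and the adjusted p 0.0510. Prickle1 (-0.70, adjusted p = 0.0136 by edgeR), Prickle2 (-0.91, adjusted p = 0.0251 by edgeR) and the Wnt5a receptor Ryk (-0.20, adjusted p = 0.0496 by edgeR) were lower. Ryk lost its call in 13 of the 17 fits that left out 1 sample and Prickle2 in 3, with an adjusted p of at most 0.101 and 0.0520. With the smooth muscle covariate the 3 lower calls were lost, at -0.26 for Prickle1 (adjusted p = 0.124 by edgeR), -0.19 for Prickle2 (adjusted p = 0.335 by edgeR) and -0.18 for Ryk (adjusted p = 0.0988 by edgeR).

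The intracellular pathway that controls beta-catenin had 30 genes tested, 8 higher and 2 lower, beside 13.4% higher and 13.5% lower over all genes, with a median of 0.14. Limma-voom with the name-part correlation called 0 of the 30. Among those higher were Bcl9, a coactivator of beta-catenin (log2 fold change 0.43, adjusted p = 0.00738 by edgeR), and the scaffold Apc (0.27, adjusted p = 0.0157 by edgeR), which serves its degradation, as well as Csnk1g1 (0.35, adjusted p = 0.0171 by edgeR), a kinase of Lrp6, and Tnks (0.24, adjusted p = 0.0275 by edgeR), which marks Axin for degradation. The corepressor Tle1 (-0.32, adjusted p = 0.00965 by edgeR) and the coactivator Pygo1 (-0.98, adjusted p = 0.0145 by edgeR) were lower, while their paralogues Tle3 (0.42, adjusted p = 0.0291 by edgeR) and Pygo2 (0.27, adjusted p = 0.0383 by edgeR) were higher. The other paralogues of Tle1, Tle2 (-0.09) and Tle4 (-0.13), were not called. Gsk3b (0.23, adjusted p = 0.0275 by edgeR) and Csnk1d (0.33, adjusted p = 0.0423 by edgeR) were also higher. The calls of Tle3, Pygo2, Gsk3b and Csnk1d were not followed through the other fits. Tnks lost its call in 2 of the 17 fits that left out 1 sample, with an adjusted p of at most 0.0614 by edgeR. Of 16 other fits, 9 lost the call of Tnks and 4 that of Apc. The adjusted p reached 0.160 for Tnks by edgeR and 0.138 for Apc by limma-voom. With the smooth muscle covariate Tle1 at -0.21 (adjusted p = 0.0581 by edgeR), Pygo1 at -0.54 (adjusted p = 0.0586 by edgeR) and Csnk1g1 at 0.27 (adjusted p = 0.0625 by edgeR) were not called. Bcl9 fell to 0.26 (adjusted p = 0.145 by edgeR) once the length and base composition trend was removed, and Apc and Tnks lost their calls with upper-quartile scaling. In that fit 2 genes of this list were called higher and 2 lower, beside 1214 higher and 2992 lower over all genes. Without GWI sample 7 the count of calls was 5, beside 19.6% of all genes.

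Target genes of Wnt signalling in the crypt had 19 of 20 tested, 1 higher and 1 lower, with a median of 0.01, beside 13.4% higher and 13.5% lower over all genes. Limma-voom with the name-part correlation called 0 of them. The count of edgeR calls was 6, 5 and 4 without GWI sample 5, Control sample 8 and Control sample 9. Over all genes these fits called 27.5%, 26.4% and 31.9%. The count was 1 without Control sample 4 or GWI sample 3 or 4, where 22.9%, 20.3% and 20.3% of all genes were called. Axin2, a feedback inhibitor that beta-catenin induces, ranged from 14.7 to 38.7 CPM with a median of 24.7 CPM in Control, and from 22.0 to 52.2 CPM with a median of 30.3 CPM in GWI samples. GWI 1 lay above every other sample, 3 Control samples lay below every GWI sample, and the rest overlapped. The log2 fold change of 0.31 (SE 0.20) had an adjusted p of 0.245 by edgeR's quasi-likelihood test. Without GWI sample 1 the log2 fold change of Axin2 was 0.16 (adjusted p = 0.518 by edgeR), and with the length and base composition trend removed 0.19 (adjusted p = 0.501 by edgeR). With the colon epithelium covariate it was 0.66 (adjusted p = 0.0415 by edgeR), the only fit that called it. Ephb2, a receptor of crypt progenitors, was higher (0.62, SE 0.20, adjusted p = 0.0320 by edgeR) and lost its call in 4 of the 17 fits that left out 1 sample, with an adjusted p of at most 0.0718, and in 7 of 16 other fits. Prox1 was lower (-0.90, SE 0.24, adjusted p = 0.0116 by edgeR), and Prox1 is also 1 of the 7 lymphatic markers. It lost its call in 5 of 16 other fits. With the smooth muscle covariate Prox1 was at -0.48 (adjusted p = 0.0938 by edgeR) and Ephb2 at 0.39 (adjusted p = 0.204 by edgeR).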

How the data were processed

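By their processing notes, the authors trimmed poly(A)-selected paired-end reads with Trimmomatic 0.36, mapped them to GRCm38 with STAR 2.5.2b and deposited a table of raw counts per gene made with featureCounts. Annotation release and strand setting were not given in the sources used here. All 17 columns were assigned by the sample labels. No 2 libraries of a group agreed within sampling noise.

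In R 4.3.3, counts were filtered with filterByExpr at defaults, scaled by TMM and fitted with edgeR 4.0.16 (robust glmQLFit, glmQLFTest), with the group as the only term and Benjamini-Hochberg adjustment over all tested genes. SE came from the fold change and F statistic. The test was checked on simulated counts of independent samples, which leaves the correlation within name parts uncovered. It recovered 77% of genes given an absolute log2 fold change of 1 and 24% of those given 0.5. Of its calls, 1.94% were of unchanged genes. Alternatives used DESeq2 1.42.0, limma 3.58.1 and mgcv 1.9.3. Besides 11 other fits, 17 left out 1 sample each, and 5 were added after the data were seen. Positions and exon lengths are from GENCODE M21, which matched all 46 members.

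Members and lists were chosen with earlier results of these data known. Full values are given for members with an adjusted p under 0.05 and for the member with the highest level per length in each role. From each pathway list at most 6 called genes, smallest p first, and Axin2 and Lgr5 could be named. Other genes were named after their values were seen.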

Additional observations from a re-analysis of the deposited data

Results flagged for a closer look

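Among 72 groups of samples examined, 31 members and 5 marker lists in both groups, 8 had a highest or lowest sample unusually far from its neighbour for the range of its group, where chance alone gives about 1 in 20 (3.6). Lrp6 in GWI sample 8 was at 118 CPM, below the next at 148 CPM. Lrp5 in Control sample 9 was at 16.9 CPM, below the next at 44.2 CPM. Control sample 1 was far from its group 3 times: Dkk2 was high at 8.15 CPM, and Fzd3 at 2.21 CPM and Wif1 at 0.884 CPM were low. Fzd7 in Control sample 6 was high at 28.4 CPM, Porcn in GWI sample 5 was high at 4.67 CPM, and the summed small intestine markers in GWI sample 1 were low at 703 CPM.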

How the results depend on the processing

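Of the count of 5 members, 17 fits that left out 1 sample gave 4 to 10, the most without Control sample 9. DESeq2 called 8, limma-voom with sample quality weights 17, limma-voom with a correlation within shared name parts 0, the fit without Control samples 1, 6, 7 and 9 8, that without Control sample 1 and GWI sample 5 8, and the threshold of the study's methods 1. Over all genes, 3792 calls became 8091 with quality weights, 3381 with library size alone and 470 with the name-part correlation. They became 2299 with the small intestine covariate and 1755 with the colon epithelium covariate. Without Control samples 1, 6, 7 and 9 there were 4949 (34.6%), and by the study's threshold 342. Leaving out 1 sample gave 2781 to 4818. The 21 calls of the pathway lists became 12 with library size alone, 45 with quality weights, 0 with the name-part correlation, 10 with the small intestine covariate, 13 with the colon epithelium covariate and 0 by the study's threshold, and leaving out 1 sample gave 12 to 25.

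With the replicate number as a block, which drops Control sample 9, 5 members, 2218 genes and 8 pathway genes were called. Samples of equal number did not resemble each other: over 8 pairs the correlation ran from -0.51 to 0.11, 1 was over 0.1, and 0 correlated best with their own number. The numbers were therefore not treated as pairs.

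Some fold changes changed sign. With the smooth muscle covariate the log2 fold changes were 0.71 for Dkk2, 0.00998 for Dkk3, 0.0864 for Fzd7, 0.68 for Rspo1, 0.12 for Sfrp1, 0.0144 for Sfrp2, -0.15 for Wif1, 0.32 for Wnt2b, 0.21 for Wnt5b, 0.13 for Wnt6, 0.60 for Wnt9a and 0.00917 for Adgra2. With the small intestine covariate Fzd7 was at 0.0649 and Wnt9a at 0.0492. With the colon epithelium covariate Fzd3 was at 0.31, Fzd7 at 0.0704, Fzd9 at 0.0786 and Lgr5 at 0.45. Upper-quartile factors put Fzd6 at -0.00768, and quality weights put Fzd8 at -0.00185. Without Control samples 6 and 7, Fzd7 was at 0.0638 and Wnt9a at 0.0664, and without Control samples 1, 6, 7 and 9, Fzd7 was at 0.0135, Rspo1 at 0.17 and Wnt9a at 0.0306. Leaving out 1 sample gave -1.33 to 0.33 for Dkk2, -0.0738 to 0.0417 for Fzd7, -0.31 to 0.00598 for Fzd9, -0.68 to 0.0713 for Rspo1 and -0.21 to 0.11 for Wnt9a. The other comparisons of fold changes were the same in 641 cases, stronger in 38 and weaker in 90 over the other fits, and the same in 773, stronger in 16 and weaker in 54 over fits that left out 1 sample. The colon epithelium covariate, the length and base composition offsets and the fits that left out several samples were chosen after the data were seen. The cause of these changes was not tested.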

Other observations

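Control sample 1 and GWI sample 5, which held high Hoxa13, stood at the same end of their groups for 6 of the 31 tested members. In both, Dkk2, Sfrp1 and Wnt5b were the highest of the group and Wnt5a, Wif1 and Fzd3 the lowest. No such count over all tested genes is given, so this does not set the members apart from other genes. Dkk2 was at 8.15 CPM in Control sample 1 against 0.354 to 1.95 CPM in the other Control samples, and at 4.92 CPM in GWI sample 5 against 0.368 to 1.95 CPM in the other GWI samples. Wif1, an inhibitor that binds Wnt ligands, was at 0.884 CPM against 2.30 to 4.66 CPM and at 1.64 CPM against 2.38 to 5.15 CPM. Wnt5a was at 15.2 CPM against 20.6 to 33.9 CPM and at 14.1 CPM against 16.9 to 24.6 CPM. The same samples were high in Hoxb13, at 55.5 and 11.4 CPM, and low in Hoxd10, at 0.505 and 1.01 CPM, where the other samples had at least 6.18 CPM in Control and 2.58 CPM in GWI. The bile acid transporter Slc10a2 was at 11.8 and 24.7 CPM there and at 155 CPM or more in all other samples. This was noticed after the values were seen, and the position along the colon from which each sample came was not given in the sources used here.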
